A study of Macaca mulatta with 8 samples.

Results

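Cells cultured from rhesus macaque cortex of 4 stages gave 53686 distal autosomal regions of open chromatin called at 1 or more stages. Of these, 10125 were called at post-conceptional day 60 (E60) alone, which is 18.9%. Members were chosen by the peak calls themselves: a region held at least 1 peak of E60 and no peak of E50, E80 or E85, lay on an autosome, and kept clear of the 1000 bp on either side of the start of any protein-coding or lncRNA gene. The calls at the 4 stages are therefore what selected the members and are no result. The members were 23.8% of the 42619 distal autosomal regions called at E60. The members nearest to the limit of 1000 bp lay 1002, 1004 and 1005 bp from a start, and the nearest regions left out as promoters lay 1000, 999 and 997 bp from one.

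Open chromatin away from gene starts holds most enhancers, stretches of DNA where transcription factors bind and act on the transcription of genes that can lie far away. In the developing cortex, radial glia divide at the ventricle and give rise to intermediate progenitors and neurons, and the factors at work in these cells include proneural basic helix-loop-helix proteins, which bind E-boxes, homeobox proteins such as LHX2, EMX2 and the DLX family, POU and SOX proteins, RFX proteins and nuclear factor I. AP-1, a dimer of FOS and JUN proteins that binds the sequence TGACTCA, is induced by growth factors and stress and opens chromatin in many cultured cell types.

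The measurement was ATAC-seq, in which the transposase Tn5 cuts accessible DNA, on primary cells from frozen cortical tissue of days 50, 60, 80 and 85 (E50, E60, E80 and E85). The tissue was thawed, dissociated with papain and grown as a monolayer in a medium that favours progenitors and contains FGF2, EGF and BDNF, so all 4 stages share this culture and its growth factors. Each stage was 1 culture with 2 technical libraries, 8 libraries in all. Because a stage was a single culture, its differences from other stages have no replicate check, and no test was made: stage, animal and culture cannot be told apart, and 95% intervals below are exact binomial intervals that cover counting error only, over regions that are not independent.

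The peak sets held 61956 peaks at E60, against 60278 at E80, 30701 at E85 and 19833 at E50. Chromatin that was open but fell short of the calling threshold at E50, E80 or E85 would count as not called there, so "E60 alone" describes calls. Regions called at E80 alone (8840), at E60 and E80 alone (17214) and at all 4 stages (8158), each distal and autosomal, serve for comparison, and E80 alone is the nearest match in set size. Promoters of the forebrain regulators EMX2 and LHX2 and of the radial glia genes SOX2, PAX6, HES1 and VIM were called at all 4 stages. Of the neuronal genes DCX, STMN2 and MAP2, the promoters of 1, 3, 2 and 1 were called at E50, E60, E80 and E85, with DCX called at E60 alone. The part of neuron number in the E60 calls was not tested. Among 4 microglial genes, including AIF1 and CX3CR1, no promoter was called at any stage. The promoters of the endothelial genes CLDN5 and FLT1 (2 of 4 listed) were called at E60, against 1 of 4 at E80 and 0 of 4 at E50 and E85, and the part of endothelial cells in the E60 calls was not tested. Of 4 mesenchymal genes, PDGFRB was called at all 4 stages and COL1A1 at E60, E80 and E85, while COL1A2 and LUM were not called.

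The sequence of the members is what their calls do not show, and the windows below illustrate the short motifs counted in the next paragraphs. For the 10 loci with the most members and for GAD1, DLX1, FEZF2 and PAX6, the member with the most matches to 6 motifs in its central 200 bp was taken, which gave 14 windows, chosen for their matches. Of these, 8 windows held at least 2 of the 6 motifs, 7 of which are printed, while the FEZF2 and PAX6 windows held none. Capitals mark matches on either strand to AP-1 (TGACTCA), homeobox (TAATTA), the E-box CAGCTG, RFX (GTTGCCA), POU (ATGCAAAT) and SOX (AACAATG), and the letters are the plus strand of Mmul_10, the assembly called rheMac10, 5′ to 3′. The windows lie at chr16:39486630-39486829 (MSI2), chr18:45108875-45109074 (CELF4), chr2:194579831-194580030 (ROBO2), chr20:7495519-7495718 (RBFOX1), chr11:104273055-104273254 (CHST11), chr6:10994739-10994938 (CTNND2) and chr12:57980178-57980377 (GAD1).
MSI2: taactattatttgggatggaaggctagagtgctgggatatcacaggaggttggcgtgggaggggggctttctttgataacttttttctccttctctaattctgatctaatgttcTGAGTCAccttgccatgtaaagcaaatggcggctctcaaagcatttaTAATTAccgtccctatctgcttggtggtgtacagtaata
CELF4: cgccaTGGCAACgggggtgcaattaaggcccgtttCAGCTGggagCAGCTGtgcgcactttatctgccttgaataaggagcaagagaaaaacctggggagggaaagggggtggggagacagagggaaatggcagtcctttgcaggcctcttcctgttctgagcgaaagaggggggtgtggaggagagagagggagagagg
ROBO2: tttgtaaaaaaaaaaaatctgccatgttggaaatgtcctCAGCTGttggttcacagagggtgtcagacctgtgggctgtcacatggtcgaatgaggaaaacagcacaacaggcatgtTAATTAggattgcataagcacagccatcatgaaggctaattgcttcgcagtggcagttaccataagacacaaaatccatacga
RBFOX1: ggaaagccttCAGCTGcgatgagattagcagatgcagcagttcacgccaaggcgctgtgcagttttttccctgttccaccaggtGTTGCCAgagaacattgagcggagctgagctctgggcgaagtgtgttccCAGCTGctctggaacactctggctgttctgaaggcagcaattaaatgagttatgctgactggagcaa
CHST11: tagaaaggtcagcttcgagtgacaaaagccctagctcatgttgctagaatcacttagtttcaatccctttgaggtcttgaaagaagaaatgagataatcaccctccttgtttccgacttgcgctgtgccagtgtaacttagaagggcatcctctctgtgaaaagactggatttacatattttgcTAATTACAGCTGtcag
CTNND2: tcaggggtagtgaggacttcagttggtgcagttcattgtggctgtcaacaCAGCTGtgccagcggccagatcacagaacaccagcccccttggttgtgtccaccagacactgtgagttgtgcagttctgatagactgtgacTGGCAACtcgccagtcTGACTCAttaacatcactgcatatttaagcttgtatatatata
GAD1: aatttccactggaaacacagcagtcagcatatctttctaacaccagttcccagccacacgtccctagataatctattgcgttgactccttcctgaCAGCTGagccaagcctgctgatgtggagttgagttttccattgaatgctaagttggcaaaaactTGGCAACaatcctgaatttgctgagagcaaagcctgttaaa

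The CELF4 and RBFOX1 windows each hold the E-box at 2 places and RFX once, and the GAD1 window holds each of these motifs once. In the ROBO2 and CHST11 windows a homeobox match stands with an E-box, and in the MSI2 window it stands with AP-1. The CTNND2 window holds AP-1, the E-box and RFX. All 7 windows lie in introns.

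The members' median width was 339 bp (quartiles 256 and 491), against 401 bp over all distal regions. It was 273 bp for E80 alone, 401 bp for E60 and E80 alone and 744 bp for all 4 stages. Width is tied to the calls that chose the members, since a merged region spans the peaks it took in. These differences in width are therefore no result. Widths ran from 129 to 7172 bp, and 289 members (2.85%) were wider than 1000 bp. Of the members, 10064 held a single E60 peak and 61 held 2 or more. The central 200 bp had a median GC content of 49.5% in members, against 48.0% for E80 alone, 50.0% for E60 and E80 alone and 52.0% for all 4 stages. The ratio of observed to expected CpG had a median of 0.245 in members and 0.190 in E80 alone. It was 0.246 in E60 and E80 alone, 0.254 for all 4 stages and 0.235 over all distal regions. No member matched the mitochondrial genome at 20 or more 25-base words, against 15 regions of E80 alone.

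Introns held 49.0% of the members, intergenic DNA 42.8% and exons 8.16%, against 50.8%, 43.5% and 5.70% of the regions called at E80 alone. Over all distal regions these shares were close to the members', at 48.6%, 42.8% and 8.66%. The members' median distance to a start was 29695 bp, against 29145 bp for E80 alone, 26420.5 bp for E60 and E80 alone and 22737 bp for all 4 stages. Beyond 100 kb from any start lay 17.6% of the members, 16.5% of E80 alone, 14.6% of E60 and E80 alone and 12% of all 4 stages. Members thus lay about as far out as E80 alone regions, and farther out than regions called at all 4 stages. Across the autosomes their share of distal regions ran between 15.1% on chromosome 19 and 23.8% on chromosome 18.

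Members lay closer to each other than E80 alone regions did. The median distance to the nearest member was 46852 bp and 14.2% of the members had another within 5 kb, against 66897.5 bp and 7.88% for E80 alone regions and their own kind. The members are also the larger set (10125 against 8840 regions), and no adjustment was made for that. Groups of 3 or more members within 20 kb numbered 215 and held 680 members (6.72%). The largest held 5 members each, over LRIG3 (chr11:58537570-58556608) and NOG (chr16:40219856-40239653), which encodes the BMP antagonist noggin. The groups of at least 4 members numbered 33. The tightest with 4 lay over NDST1, DLX1, BFSP2, PDLIM4 and CACNA1G, and groups of 4 on chromosomes 20, 3, 16 and 13 lay over no gene. Other groups of 4 lay over the semaphorin gene SEMA6A, the homeobox gene GBX2, the Groucho corepressor genes TLE1 and TLE3, GAD1 and CELF4. These groups were named after their values were seen.

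The table also holds peaks of 4 sets with the codes H14, H16, H22 and H23 and the tag liftedUnmerged, which the labels do not define. Of the members, 49.5% (48.5 to 50.5) held a lifted peak, against 27.7% (26.7 to 28.6) for E80 alone, 57.4% for E60 and E80 alone and 84.5% for all 4 stages. Over all distal regions this share was 56.7%, above that of the members. Members met all 4 lifted sets in 8.30%, against 3.07% for E80 alone, 52.7% for all 4 stages and 17.7% over all distal regions. By code, the members' share was 37.7% for H14, 9.09% for H16, 18.4% for H22 and 43.5% for H23. The order follows the size of the lifted sets, which held 71615 peaks (H14), 25822 (H16), 42871 (H22) and 75146 (H23). Width moves with these shares: a lifted peak was present in 27.3% of the members of at most 300 bp, 53.0% of those of 300 to 500 bp and 81.3% of wider ones.

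AP-1 sites were scarce and homeobox and E-box sites frequent in the centres of the members. The AP-1 motif TGACTCA was present in 9.56% (8.99 to 10.1) of the members' central 200 bp, against 39.5% of E80 alone, 28.1% of E60 and E80 alone, 14.9% of all 4 stages and 22% of all distal regions. The homeobox motif TAATTA was in 12% (11.4 to 12.7) of the members, against 4.89%, 7.16%, 5.63% and 7.19% of the same sets. The E-box CAGCTG, a preferred site of several proneural factors, was in 25.1% (24.3 to 26.0) of the members, against 15.5%, 18.6%, 19.1% and 19.3%. With the E80 culture left out of the rule the set grew to 27339 regions, of which 21.2% held AP-1, 8.96% the homeobox motif and 21% CAGCTG, so the low AP-1 share depends on the E80 calls.

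Other motifs differed less in percentage points, and not all in one direction. POU (ATGCAAAT, bound by POU3F2 and its relatives) was in 3.76% of the members and 1.47% of E80 alone, RFX (GTTGCCA, bound by RFX factors of ciliated and neural cells) in 5.40% and 3.64%, and SOX (AACAATG) in 4.83% and 3.65%. The nuclear factor I motif TTGGCA was in 20.0% of the members and 14.5% of E80 alone, the E-box CAGATG in 19.3% and 16%, CAGGTG in 13.1% and 6.53%, and MEIS (TGACAG) in 16.5% and 12.8%. Over all distal regions these shares were 2.42% for POU, 4.47% for RFX, 4.08% for SOX, 17.2% for TTGGCA, 16.3% for CAGATG, 10.5% for CAGGTG and 14% for MEIS, and the regions called at all 4 stages held RFX in 5.58%, above the members. T-box stood at 0.543% of the members, 0.633% of E80 alone and 0.590% of all distal regions, and MEF2 at 0.385%, 0.622% and 0.468%. TEAD (ACATTCC), the DNA partner of YAP, was in 2.80% of the members and 8.12% of E80 alone, and the nuclear receptor motif AAGGTCA in 2.08% and 5.41%. CTCF (AGGGGGCGC) was in 0.790% and 0.215%, and KLF/SP (GGGCGGG) in 6.0% and 2.60%, against 0.981% and 8.81% of all 4 stages. Over all distal regions TEAD was in 4.61%, the nuclear receptor motif in 3.25%, CTCF in 0.821% and KLF/SP in 5.99%.

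**Figure D1:**
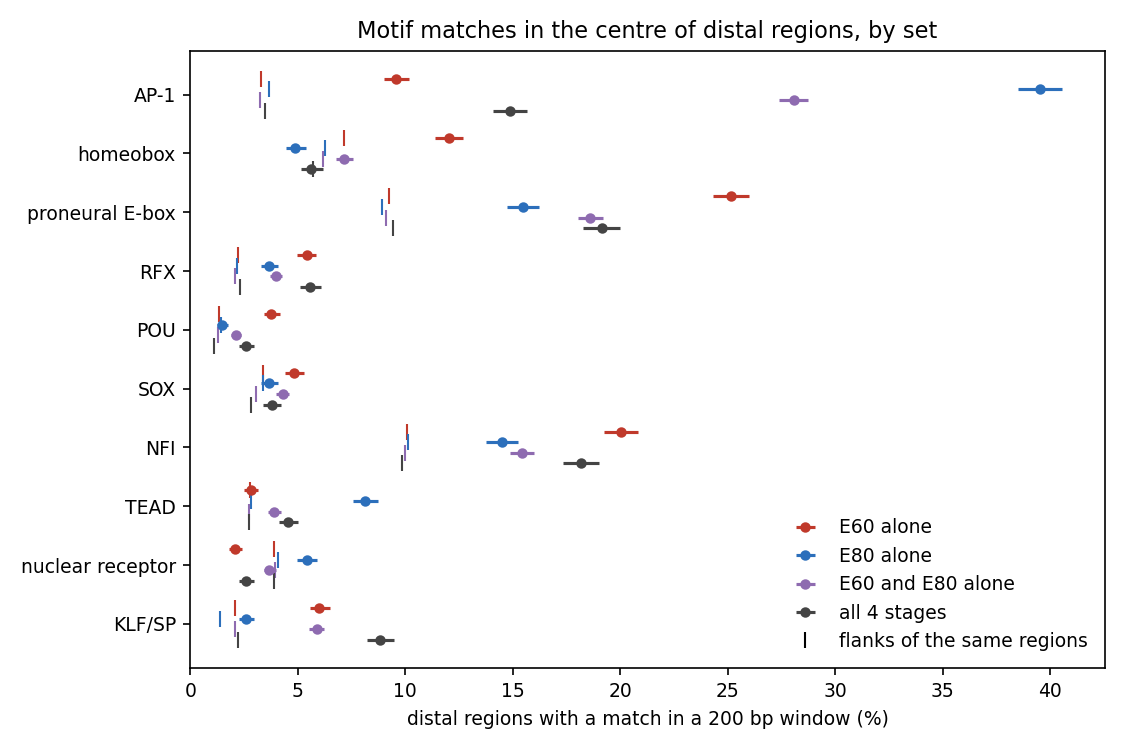
Share of regions (%, horizontal axis) that hold each motif on either strand in the central 200 bp, for E60 alone, E80 alone, E60 and E80 alone and all 4 stages, with vertical ticks for the flanks of the same sets. Points carry exact 95% intervals over regions. AP-1 is lowest in E60 alone regions among the 4 sets (9.56%, against 39.5% at E80 alone), while the homeobox motif and the E-box are highest there (12% and 25.1%).

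These directions were also read at matched GC content. Within 8 bins of 5% GC, AP-1 was lower in members than in E80 alone in 8 of 8, homeobox higher in 8 of 8, NFI higher in 8 of 8, and CAGCTG, RFX, SOX and POU higher in 7 of 8 each. Against all 4 stages, homeobox was higher in 8 of 8 and CAGCTG in 7 of 8, while AP-1 was lower in 6 of 8 and higher in 2, and RFX and NFI were lower in 3 of 8. Between 45% and 50% GC, 10.7% of 2289 members and 42.8% of 2533 E80 alone regions held AP-1, 12.4% and 4.82% homeobox, and 24.0% and 14.1% CAGCTG. RFX and TTGGCA can share letters on opposite strands, TAATTA and CAGCTG read the same on both strands, and a match describes letters in a window and not a bound site.

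Most of the motifs were more frequent at the centres of the members than in the DNA around them, though some barely so, such as TEAD (2.80% in centres, 2.78% in flanks). In windows of 200 bp centred 1000 bp to either side, AP-1 was in 3.28%, homeobox in 7.16%, CAGCTG in 9.23%, RFX in 2.22%, POU in 1.33%, SOX in 3.40% and NFI in 10.1%. Of the 29 motifs, 23 were more frequent in the centres than in the flanks and 6 less: CAGGTG (13.1% in centres, 18.2% in flanks), GATA (7.86% and 11.9%), MEF2 (0.385% and 3.69%), T-box (0.543% and 1.95%), nuclear receptor (2.08% and 3.89%) and NRF1 (0.217% and 0.321%). Counted in steps of 50 bp, CAGCTG had 81.8 matches per 1000 members in the central 100 bp and 25.6 at 500 to 1000 bp, a ratio of 3.20, against 45.9, 24.3 and 1.89 for E80 alone. Homeobox had 37.6 and 20.4 matches in members (ratio 1.85), against 14 and 17.8 in E80 alone (0.785) and 17.0 and 15.9 over all 4 stages (1.07). AP-1 had 33.4 and 8.32 in members (4.01), against 160 and 9.73 in E80 alone (16.5). The central peak of homeobox and E-box matches was thus higher in members, and that of AP-1 lower but present.

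**Figure D2:**
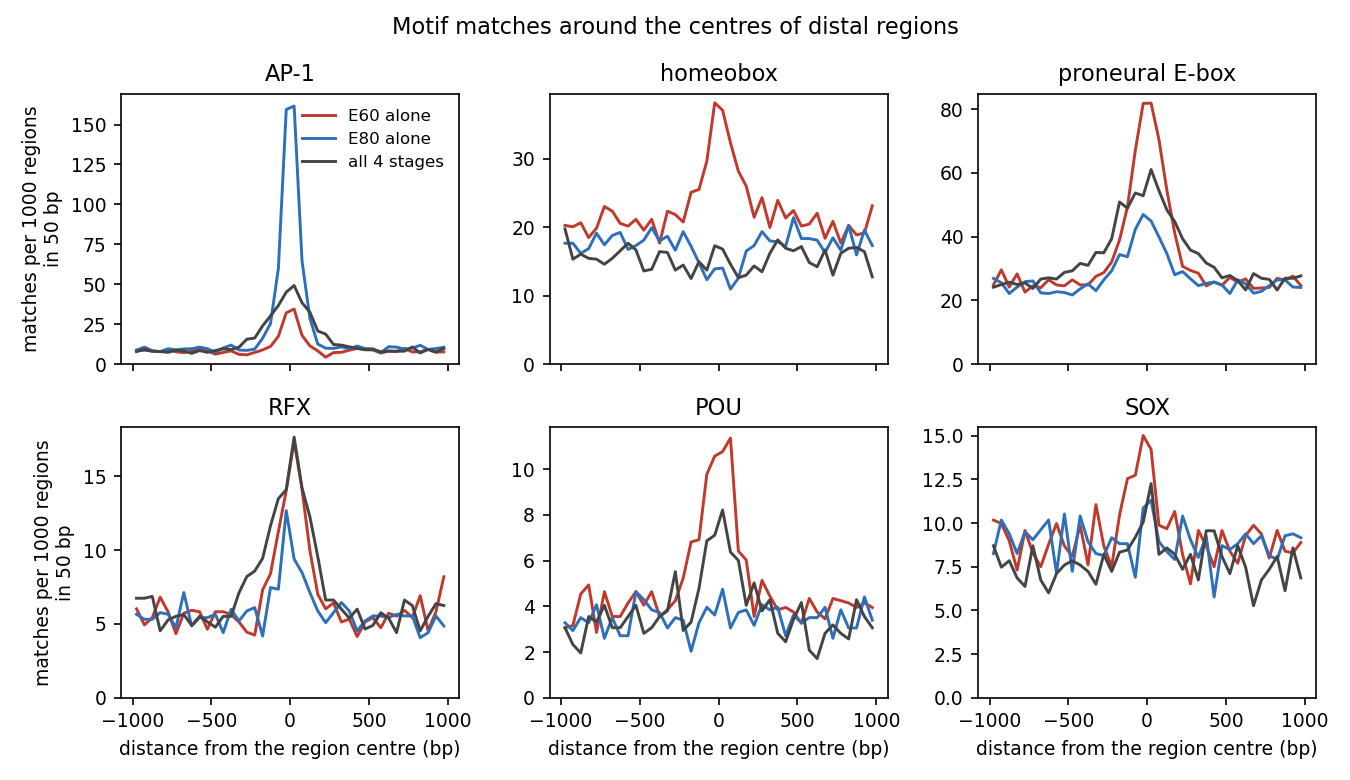
Motif matches per 1000 regions in steps of 50 bp (vertical axis) against distance from the region's centre in bp (horizontal axis), for E60 alone, E80 alone and all 4 stages. In the central 100 bp E60 alone regions reach 81.8 for the E-box CAGCTG and 37.6 for homeobox, against 45.9 and 14 in E80 alone, and AP-1 stands at 33.4 against 160.

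Most members held few of these motifs. Of the 6 motifs marked in the sequences above, 50.3% of the members held none, 39.7% held 1, 8.96% held 2 and 1.02% held 3 or more. This split was close to that of all distal regions, of which 51.4% held none and 38.8% held 1, so it does not set the members apart. Regions with none of the 6 were fewer in E80 alone (43.5%) and more in all 4 stages (57.5%). Homeobox and CAGCTG stood together in 259 members (2.56%), against 0.622% of E80 alone and 1.23% of all distal regions. Homeobox with POU was in 0.652% of the members, 0.0452% of E80 alone (4 regions) and 0.313% of all distal regions. AP-1 with CAGCTG stood together in 1.59% of the members, against 6.12% of E80 alone and 3.71% of all distal regions. The shares of the single motifs differ between these sets, and the pairs were not adjusted for that.

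The members were not uniform. AP-1 was in 5.37% of those with a lifted peak and 13.7% of those without, and in 14.2% of members of at most 300 bp, 8.49% of those of 300 to 500 bp and 3.48% of wider ones. The E-box CAGCTG varied less, with 25.2% in members with a lifted peak and 25.1% in those without, and 24.6%, 27.2% and 22.8% by width. Homeobox stood at 10.3% with a lifted peak and 13.7% without. It was in 16.5% of the 1785 members beyond 100 kb from a start and 7.31% of the 1341 within 5 kb, while KLF/SP was in 3.03% and 10.6%. The 826 exonic members had the highest GC content of the classes compared, 56.0%, with KLF/SP in 13.1% and homeobox in 5.33%. Members with a lifted peak were also wider (436 bp against 282 bp), and the motif shares were not split by lifted peak and width at once.

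A gene's locus was its body with the 5 kb upstream. Of 9178 protein-coding loci with a distal region, 3254 held at least 1 member (35.5%), 2103 of them exactly 1 and 199 at least 5. Inside loci lay 5665 members, 18.7% of the 30248 distal regions there, and 4460 lay outside all loci. Loci differ in length and in their number of distal regions, so a count of members is given beside the other patterns at the same locus.

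The loci with the most members, ranked by count and not by share, belonged to genes of varied function. MSI2, an RNA-binding protein of progenitors (chr16:39118886-39552607), held 17 members, against 4 E80 alone regions, among 64 distal regions, of which 20, 60, 46 and 23 were called at E50, E60, E80 and E85. GSE1 held 15 members, against 5, among 58. The member shares at MSI2 (26.6%) and GSE1 (25.9%) were not far from the 18.7% inside all loci. CELF4, a neuronal splicing and mRNA-binding protein (chr18:44994311-45315024), held 13 members and no E80 alone region among 25, all of which were called at E60, 12 at E80, 6 at E85 and 2 at E50. RBFOX1, a neuronal splicing factor (chr20:5320850-7802213), held 11 members and no E80 alone region among 21. NFIA, a nuclear factor I gene that acts in gliogenesis and radial glia (chr1:162988663-163372064), also held 11 and none among 25. RALGAPA2 (9 and 0) was the fourth of the 20 loci with no E80 alone region.

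Among adhesion and guidance genes, the cell adhesion molecule gene DSCAML1 held 13 members and 5 E80 alone regions among 29 distal regions, the SLIT receptor gene ROBO2 12 and 3 among 24, and the delta-catenin gene CTNND2 11 and 1 among 27. PTPRG held 10 and 2 among 20, and SDK2 10 and 1 among 25. OPCML held 11 and 8 among 48, a member share of 22.9%, and 18 of its regions were called at E60 and E80 alone. Transcriptional regulators included GLI3, a Hedgehog pathway repressor that patterns the forebrain (9 and 1 among 20), and FOXP1 (9 and 1 among 21). Genes outside these classes were CMIP (12 and 7 among 29), CHST11 (11 and 6 among 26), NEDD4L (10 and 2 among 22), RAD51B (9 and 1 among 21) and NCKAP5 (9 and 3 among 23). Since these loci were taken for their members, that members outnumbered E80 alone regions in each is no finding. Assigned to the nearest start within 100 kb in place of the locus, CELF4 had 12 members and GSE1 12, while MSI2 had 6, NFIA 6, CTNND2 4, ROBO2 3 and RBFOX1 1.

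**Figure D3:**
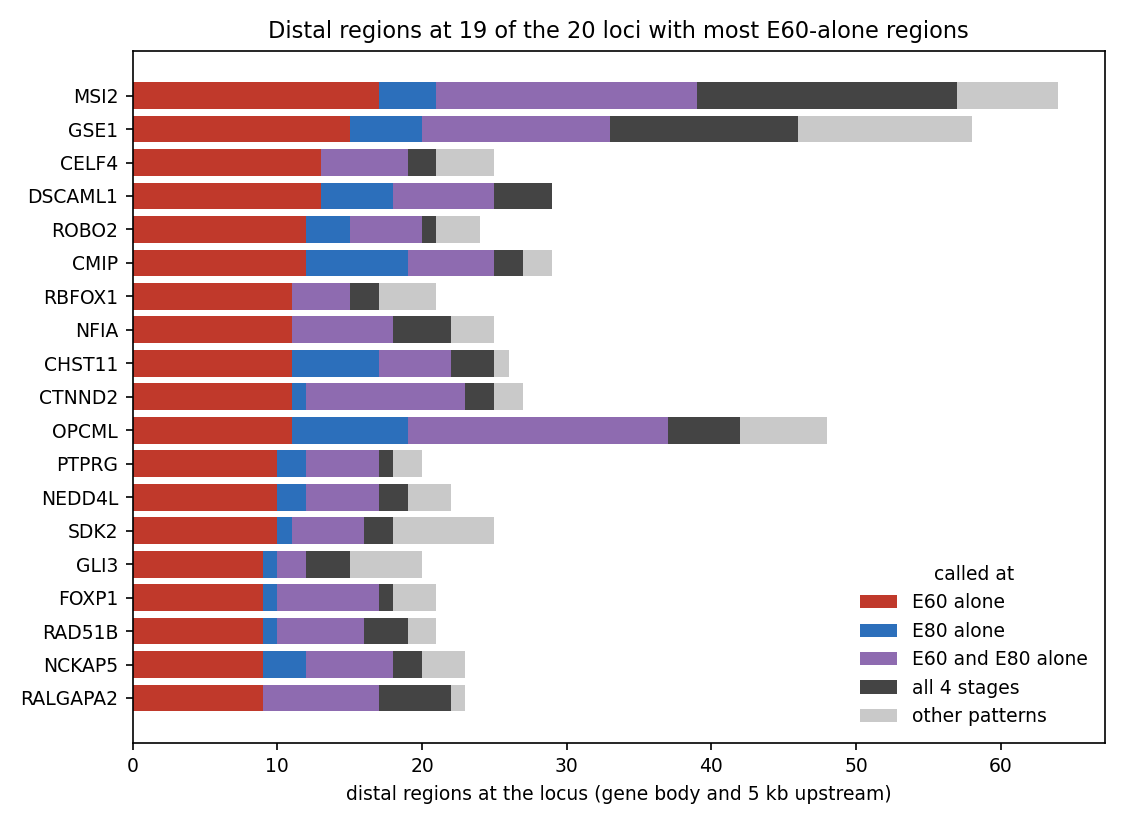
Number of distal regions (horizontal axis) in 19 of the 20 loci with the most E60 alone regions, split by stage pattern, E60 alone first. MSI2 has 17 E60 alone regions and CELF4 13, and CELF4, RBFOX1, NFIA and RALGAPA2 have no E80 alone region.

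By share rather than number, loci of 8 or more distal regions had a median of 18.2% members over 947 loci. The 8 highest held no E80 alone region, which the choice by member share largely fixes. METAP1D (chr12:59106350-59199900), which encodes a mitochondrial methionine aminopeptidase and lies next to DLX1, had 7 members among 8 distal regions (87.5%). CPLX2, which encodes the presynaptic protein complexin 2, had 6 of 8, all 8 called at E60, 2 at E80 and 0 at E50 and E85. The Reelin receptor gene LRP8 also had 6 of 8 with the same calls. FAM49A had 8 of 12, the T-type calcium channel gene CACNA1G 6 of 9, and the glutamate receptor scaffold gene GRIP2 6 of 9. PTPRZ1, a receptor phosphatase of outer radial glia, had 7 of 11, and TLE1 7 of 11. By nearest start, CPLX2 had 10 members of 14 regions, TLE1 10 of 16 and FAM49A 8 of 18, the last with 2 E80 alone regions.

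**Figure D4:**
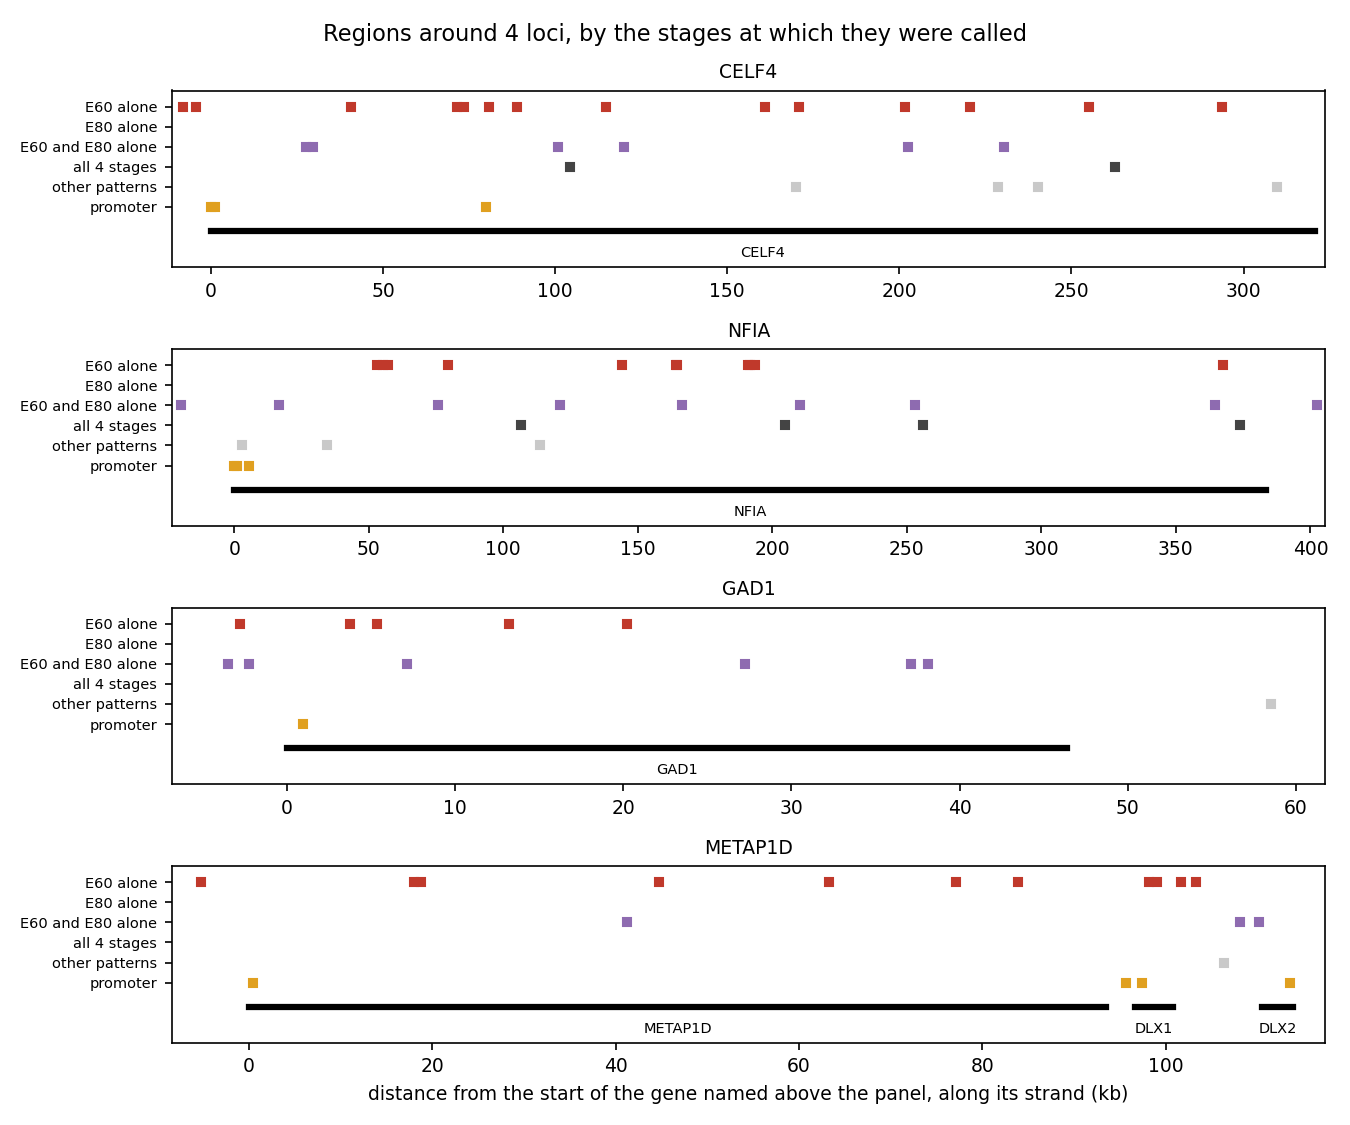
Maps of the CELF4, NFIA, GAD1 and METAP1D loci with distance from the start of the named gene along its strand in kb (horizontal axis), genes as black lines and called regions as squares in 1 row per stage pattern. E60 alone regions are spread along CELF4 (13 in the locus, with 1 more mark upstream of it) and NFIA (11), and near METAP1D (7 of 8 distal regions) they run on past the neighbouring DLX1 gene.

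The promoters of these genes were open beyond E60. Of the 199 loci with 5 or more members, 93.5% had a promoter called at E60, 91.5% at E80, 68.8% at E85 and 52.8% at E50, and 3.02% had one called at E60 alone. Over all loci these shares were 77.5%, 75.5%, 62.2% and 51.2%, with 2.92% at E60 alone. Loci with 5 or more E80 alone regions had 97.9%, 94.7%, 75.5% and 53.2% in the same order of stages, as high as at the members' loci or higher. The promoters of CELF4, DSCAML1, GAD1, GAD2 and FAM49A were called at E60 and E80, those of MSI2, NFIA, GLI3 and PTPRZ1 at all 4 stages, and no promoter of RBFOX1, FOXP1 or NCKAP5 was called. ROBO2 had promoter calls at E50, E80 and E85 and none at E60.

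In 20 gene lists, the member share of distal regions in the loci is read against 18.7% over all loci, where E80 alone regions were 16.1%. Interneuron and ventral forebrain genes held 15 members among 31 regions (48.4%, 30.2 to 66.9), against 2 E80 alone regions (6.45%), in 7 of 11 genes with a region. GAD1 and GAD2, which encode the enzymes that make GABA, held 5 of 11 and 3 of 5, and the homeobox genes DLX1 and GSX2 2 of 2 each. GAD1 and GAD2 carried 8 of the 15 members, and DLX2, LHX6 and NKX2-1 held 0 of 1 each and CALB2 0 of 2. Nuclear factor I genes held 26 of 75 (34.7%, 24.0 to 46.5) with no E80 alone region: NFIA 11, NFIX 9, NFIB 6 and NFIC 0. MEIS and PBX homeobox genes held 25 of 81 (30.9%), among them MEIS2 with 7 and PBX3 with 5. PKNOX2 of the same list held 3 of 16, against 4 E80 alone regions.

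Neuronal RNA-binding protein genes held 63 members of 197 regions (32.0%, 25.5 to 39.0), against 19 E80 alone regions (9.64%), in 11 of 17 genes. MSI2, described above as a protein of progenitors, carried 17 of the 63 members and 64 of the 197 regions. CELF4 held 13, RBFOX1 11 and CELF2 7, and the splicing factor gene SRRM4 held 3 of 3, while RBFOX2 held 0 of 9. Axon guidance genes held 71 of 297 (23.9%, 19.2 to 29.2) in 23 of 24 genes, led by ROBO2, SLIT3 with 6 and SLIT1 with 5. SLIT3 held as many E80 alone regions (6) among its 22, and by nearest start it had 1 member against 6 among 11. E80 alone regions outnumbered members at PLXNA4 (4 against 2 among 22) and EPHB1 (2 against 1 among 15). Upper-layer neuron genes held 18 of 61 (29.5%, 18.5 to 42.6), with CUX1 at 6 of 23 and CUX2 at 5 of 7. UNC5D of this list held 2 of 12 against 5 E80 alone regions, MEF2C 0 of 5 and BHLHE22 0 of 1. Deep-layer genes held 12 of 46 (26.1%, 14.3 to 41.1), with SOX5 at 5 of 19 and FOXP2 at 3 of 7. FEZF2, a regulator of corticospinal neurons, held 1 of 1, while BCL11B held 0 of 5, CRYM 0 of 1 and LDB2 2 of 11. Radial glia genes held 20 of 80 (25%), with GLI3 at 9 of 20, NOTCH1 at 3 of 12 and PAX6 at 2 of 5. GLI3 thus held 9 of the 20 members, while SOX2 held 1 of 10, SLC1A3 1 of 8, and VIM, NES, SOX9, EMX2 and HES5 none. Outer radial glia genes held 15 of 57 (26.3%), with PTPRZ1 at 7 of 11 and HOPX at 2 of 3. Elsewhere in the list, TNC and FAM107A held 0 of 8 each and ITGB5 held 2 of 14 against 5 E80 alone regions.

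Synaptic adhesion and scaffold genes held 59 of 258 (22.9%), against 44 E80 alone regions, and varied within the list. CTNND2 and SDK2 led with 11 and 10, while DLGAP2 held 2 members against 12 E80 alone regions and DLG2 5 against 11. Potassium channel genes held 29 of 182 (15.9%) against 34 E80 alone regions, with KCNMA1 at 4 against 13, and neuronal cytoskeleton genes 10 of 70 (14.3%) against 11, with MAP2 at 5. Intermediate progenitor genes held 3 of 9, all 3 in ELAVL4, AP-1 subunit genes 4 of 14, and oligodendrocyte lineage genes 9 of 38, with TCF7L2 at 5. Endothelial genes held 6 of 25 (24.0%) against 8 E80 alone regions (32.0%), with FLT1 at 3.

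Astrocyte genes held 0 members among 30 regions in 9 genes (interval 0 to 11.6%), against 3 E80 alone regions, among them GFAP with 0 of 4 and SLC1A2 with 0 of 10. Microglial genes held 0 of 7, ribosomal protein genes 0 of 4 and mesenchymal genes 1 of 11, counts too small to set a share. By nearest start within 100 kb, where the share over all genes was 17.7%, astrocyte genes had 6 of 70 (8.57%, 3.21 to 17.7). Interneuron genes had 25 of 68 (36.8%, 25.4 to 49.3) and RNA-binding protein genes 39 of 125 (31.2%, 23.2 to 40.1). MEIS and PBX genes had 16 of 59 (27.1%, 16.4 to 40.3) and nuclear factor I genes 18 of 59 (30.5%, 19.2 to 43.9, with 0 E80 alone). The intervals of the astrocyte and of the MEIS and PBX genes reach the share over all genes.

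**Figure D5:**
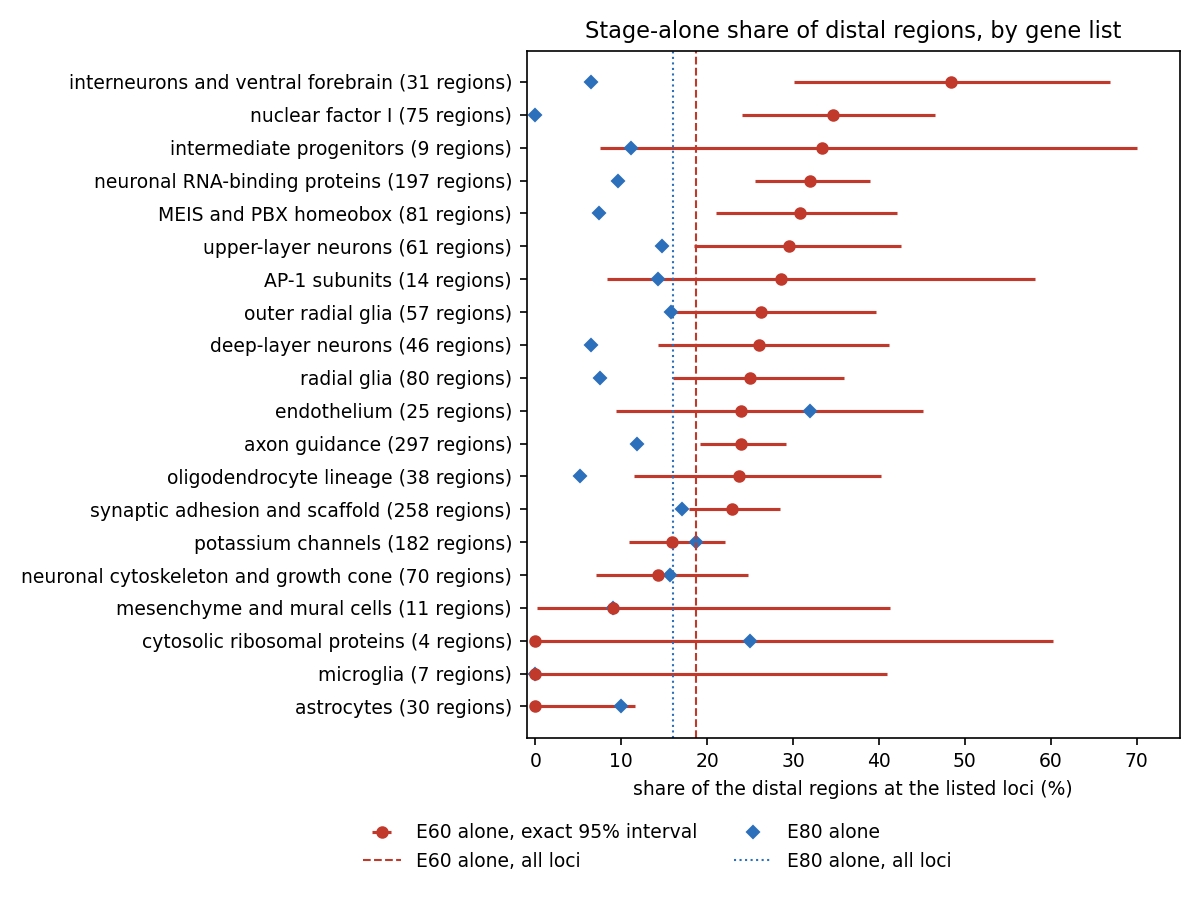
Share of distal regions (%, horizontal axis) in the loci of each gene list with the call E60 alone or the call E80 alone, with exact 95% intervals over regions for E60 alone. Interneuron and ventral forebrain genes stand at 48.4% against 6.45%, nuclear factor I genes at 34.7% against 0 and astrocyte genes at 0 against 10.0%.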

How the data were processed

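A single table without a header was deposited by the authors, with the position of each of 112696 merged regions and the peak names it took in. Per the submitters' processing notes, reads were handled with cutadapt 4.4, Bowtie2 2.5.1 and SAMtools 1.15 on rheMac10, while peak calling, its cutoff, read shifting, pooling of libraries and the filter behind the tag nativeFiltered were not given in the sources used. Each deposited peak name carries the code of its set, 4 of these codes (M50, M60, M80 and M85) carry the days in the labels, and a region counted as called at a stage when it held at least 1 peak of it. The other 8 deposited columns of values carry no names and were not used, so depth per library is not analysed here. A planned test on counts needed those columns and was not run.

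The deposited positions were set on NCBI gene models and sequence of Mmul_10. Motifs were sought as exact letters on both strands in the central 200 bp, with flanks centred 1000 bp to either side, for 29 motifs. Those not spelled out in the results were CRE (TGACGTCA), CACGTG, EGR (GCGTGGGCG), ETS (CCGGAAGT), AGATAA for the GATA factors, GLI (TGGGTGGTC), MEF2 (CTAAAAATA), NFY (CCAATCA), NRF1 (GCGCATGC), RBPJ (CGTGGGAA), STAT (TTCCNGGAA), T-box (AGGTGTGA), TCF/LEF (ATCAAAG), ZIC (CAGCAGG) and forkhead (TGTTTAC). T-box and CAGGTG can share letters. Shares have exact Clopper-Pearson 95% intervals. The members, the 20 gene lists and the motifs were chosen with earlier results of these data known. Named genes are the 20 loci with the most members, the 8 with the highest share among at least 8 distal regions and up to 4 leading genes per list, while others were named after their values were seen. Some genes and 1 sequence that these rules name are not reported here. The counting code was checked on simulated regions. Alternatives were other motif windows, widths, GC limits, peak numbers, regions without lifted peaks, rules without each other culture and assignment to the nearest start. Python 3.11.15, NumPy 2.4.6, pandas 2.3.3, SciPy 1.17.1, pysam 0.24.0 and matplotlib 3.10.9 were used.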

Additional observations from a re-analysis of the deposited data

How the results depend on the processing

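Against E80 alone, the share of members with AP-1 was lower and that with the homeobox motif higher under each of the 13 settings counted, the one used in the report included, and CAGCTG was higher under 12. Without the E80 culture in the rule there were 27339 members, of which 54.5% held a lifted peak, 21.2% AP-1, 8.96% homeobox and 21% CAGCTG. Without regions that hold a lifted peak 5113 members were left, with AP-1 in 13.7% and homeobox in 13.7%. Among members of at most 1000 bp, 48.1% held a lifted peak. With at least 2 peaks of the stage in a region 61 members were left, 100% with a lifted peak, 0% with AP-1, 9.84% with homeobox and 11.5% with CAGCTG, the last against 17.6% of 17 E80 alone regions. A motif window of 100 bp gave 6.12%, 6.67% and 14.3% for AP-1, homeobox and CAGCTG, a window of 300 bp gave 11.5%, 16% and 32.4%, and a GC content of 40 to 50% gave 11.4%, 15.6% and 22.6%. Counts of members per gene list moved by over 1.5 times in 67 of 220 cases. Of the 20 lists, 19 moved without the E80 culture and 17 with at least 2 peaks of the stage. These 2 settings change the set to 27339 and 61 members. Without regions that hold a lifted peak, which leaves 5113 members, 16 lists moved. By nearest start 13 lists moved, so most list counts depend on how regions are assigned to genes. That assignment also changes the number of distal regions per list, so a moved count need not mean a moved share. Why single lists moved was not tested. No paired analysis was possible because the peak calls carry no library. Leaving out each technical library was not run for the same reason, and the share of repeats was not run because the genome sequence used carries no repeat marks. Depth sets which regions reach a call, and it is unknown here.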

Other observations

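By nearest start within 100 kb, several genes outside the 20 leading loci had many members, some of which lie in introns of neighbouring genes and were counted there by locus. NOG, which encodes the BMP antagonist noggin, had 8 members of 11 distal regions and no E80 alone region. INSM1, a zinc finger factor of intermediate progenitors and newborn neurons, had 8 of 19 and none. Its own locus held 0 members, and at least 4 of the 8 lie in introns of the neighbouring RALGAPA2. DLX1 had 7 of 7, of which 3 lie in introns of METAP1D, with no E80 alone region. The corepressor gene TLE3 had 8 of 16 and FNDC3B 9 of 23, both with no E80 alone region, and ELFN2 had 9 of 16 with 1. FEZF2 had 3 of 5. EOMES, a factor of intermediate progenitors, had 0 of 5 and NEUROD1 0 of 3, with 3 regions each called at E60 and E80 alone. Of the 20 genes with the most members by nearest start, 6 were also among the 20 by locus. All of these were picked after their values were seen.

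Among the motifs not described above, ZIC was in 11.7% of the members and 8.94% of E80 alone, GATA in 7.86% and 5.44%, CACGTG in 3.68% and 2.83%, TCF/LEF in 3.16% and 2.49%, and forkhead in 3.13% and 2.88%. STAT was in 0.573% of the members and 1.06% of E80 alone, CRE in 0.188% and 0.317%, and RBPJ in 0.375% and 0.486%. NFY stood at 2.14% and 2.13%, ETS at 0.247% and 0.260%, GLI at 0.227% and 0.204%, EGR at 0.148% and 0.102%. Over all distal regions ZIC was in 11.2%, GATA in 5.80%, CACGTG in 3.38%, TCF/LEF in 2.56% and forkhead in 2.75%. STAT stood there at 0.900%, CRE at 0.255%, RBPJ at 0.479%, NFY at 2.37%, ETS at 0.291%, GLI at 0.218% and EGR at 0.181%. The regions called at all 4 stages held ZIC in 12.6%, above the members.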
